A study of Mus musculus with 12 samples.

Results

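The genes of the NF-κB family and its inhibitors were examined in MIN6 cells, a mouse insulin-secreting β-cell line. The 10 genes were taken by symbol from the 54022 genes of the count and FPKM tables: the subunit genes Rela, Nfkb1, Rel, Nfkb2 and Relb, the inhibitor genes Nfkbia, Nfkbib and Nfkbie, the atypical inhibitor gene Nfkbiz, and Tnfaip3. Wild-type MIN6 cells were given vehicle or 100 nM trimethylamine N-oxide (TMAO), a gut microbiota-derived metabolite, for 18 h, with glucose at a low (LG) or high (HG) level. The 18 h refer to TMAO or vehicle. The labels and the text of the RNA-seq methods do not state how long the cells were at each glucose level, and no exposure time is given here. The labels name the glucose levels by word only, without a concentration. Each of the 4 conditions, LG vehicle, LG TMAO, HG vehicle and HG TMAO, had 3 libraries, described as biological replicates of 1 cell line. Whether the replicates came from separate passages is not stated, so p-values measure the spread between these cultures.

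NF-κB is a family of dimeric transcription factors. In resting cells, dimers such as RelA with p50, the product of Nfkb1, are held in the cytoplasm by IκB proteins. Inflammatory signals such as IL-1β activate the IκB kinase (IKK) complex, IκB is degraded, and the dimers enter the nucleus. In the alternative branch, NF-κB-inducing kinase and IKKα lead to processing of p100, the Nfkb2 product, to p52, which pairs with RelB. Several inhibitor genes are themselves NF-κB targets. In β-cells the pathway is best known as a mediator of cytokine toxicity. RNA levels do not measure its activity, which depends on phosphorylation, degradation and location of the proteins.

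Library totals ranged from 16793162 to 22340542 counts. All 10 genes passed the filter on low counts, as did 16222 genes in all, and the lowest count of any of the 10 in a library was 145, for Nfkbie. All 10 β-cell markers examined were present, with Ins2 at 22800 to 27400 FPKM (fragments scaled by gene length and by library total). Of 8 macrophage and leukocyte markers, 7 stayed under 1 FPKM in every library and Ptprc and Adgre1 had no counts. The summed level of that list was 2.92 to 4.16 FPKM at low and 4.19 to 5.0035 FPKM at high glucose, and Cd68 alone was at 2.88 to 4.84 FPKM. All 6 fibroblast and all 5 endothelial markers were under 1 FPKM in every library. Among 5 markers of other islet cells, the α-cell hormone gene Gcg made up nearly all of the signal. The summed level of that list was 201 to 218 FPKM over the 6 low-glucose libraries and 224 to 230 FPKM over the 6 high-glucose libraries, without overlap, and Gcg alone was at 200 to 216 and 222 to 227 FPKM. The part of the macrophage and other islet cell markers in the glucose differences below was not tested.

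The upstream sequences of the subunit and inhibitor genes whose RNA differed with glucose are shown because several genes of the family carry κB sites, the DNA element bound by NF-κB. RefSeq promoter entries (GRCm38.p6) were found for 7 of the 10 genes, in 10 windows, and those of Nfkb1, Relb and Nfkbiz are not shown here. The 250 bases before the transcript start are given 5′ to 3′ on the strand of the gene, with matches to the κB consensus in capitals. Nfkb2 lies on the plus strand (chr19:46304487-46304736), Rel on the minus strand (chr11:23770970-23771219) and Nfkbia on the minus strand (chr12:55492648-55492897).
Nfkb2: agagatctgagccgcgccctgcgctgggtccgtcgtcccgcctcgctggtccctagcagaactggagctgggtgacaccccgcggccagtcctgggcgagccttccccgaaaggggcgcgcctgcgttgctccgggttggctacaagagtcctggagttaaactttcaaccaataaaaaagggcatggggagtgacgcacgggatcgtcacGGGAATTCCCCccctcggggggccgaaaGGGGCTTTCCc
Rel: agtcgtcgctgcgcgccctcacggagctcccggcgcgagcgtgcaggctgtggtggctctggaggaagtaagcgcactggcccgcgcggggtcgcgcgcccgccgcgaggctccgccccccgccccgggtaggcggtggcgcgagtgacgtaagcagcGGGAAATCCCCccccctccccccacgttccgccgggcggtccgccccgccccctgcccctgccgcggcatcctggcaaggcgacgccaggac
Nfkbia: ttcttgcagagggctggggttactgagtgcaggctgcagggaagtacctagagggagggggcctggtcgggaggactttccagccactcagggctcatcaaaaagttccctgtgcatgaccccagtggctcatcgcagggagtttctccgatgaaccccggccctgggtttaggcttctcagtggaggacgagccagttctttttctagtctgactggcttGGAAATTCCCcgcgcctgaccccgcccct
The consensus was searched on both strands, and overlapping matches were each counted. The Nfkb2 window held 3 matches, of which the first 2 overlap, and the last ended 2 bases before the start. The Rel window held 2 overlapping matches, and the Nfkbia window held 1, which ended 20 bases before the start. A match was present in 7 of the 10 windows, which belong to Nfkb2, Rel, Nfkbia, Nfkbie and Tnfaip3, and in no window of Rela or Nfkbib. Nfkb2 has 3 windows, with 3, 1 and 1 matches, and the window shown is the one with the most. Among all 32851 mouse promoter windows of this length, 7.25% held a match. A match describes the letters and does not show binding.

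By the deposited FPKM, Nfkbia was the most abundant of the 10 transcripts and Tnfaip3 the least. The mean FPKM over 12 libraries was 33.8 for Nfkbia, 24.1 for Rela, 16.6 for Nfkb2, 16.5 for Nfkbib, 9.52 for Relb, 5.50 for Nfkbiz, 5.01 for Nfkb1, 3.68 for Rel, 3.55 for Nfkbie and 2.38 for Tnfaip3. The median of all tested genes was 5.24 FPKM, so 6 of the 10 genes lay above it. Of neighbours in this order, Rela and Nfkb2, Nfkb2 and Nfkbib, Nfkbiz and Nfkb1, and Rel and Nfkbie had overlapping ranges over the 12 libraries. Within each of the 12 libraries Rela was still above Nfkb2. Nfkb2 was below Nfkbib in all 6 low-glucose libraries and above it in all 6 high-glucose libraries. The order also depended on the length used. The table divides Nfkb1 by 12061 bases, whereas its principal transcript in GENCODE M21 has 4117, and with that length its mean would be 14.7 rather than 5.01 FPKM. With principal transcript lengths Relb would be at 16.75 and Tnfaip3 at 3.90 FPKM, and Nfkbie, at 3.53, would be the least abundant. Nfkbia stayed the most abundant.

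**Figure D1:**
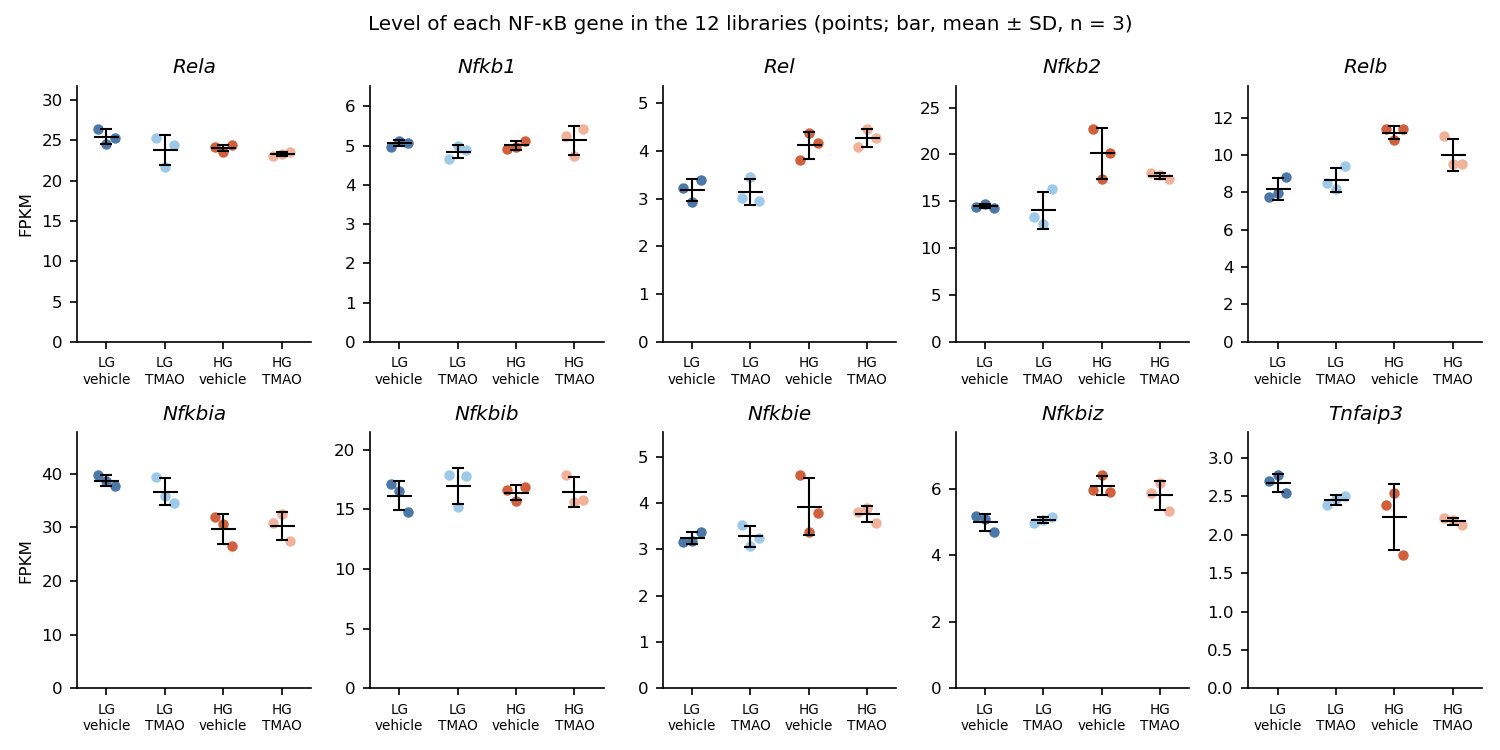
FPKM of each gene (vertical axis, starting at 0) in the 4 conditions. Points are single libraries and bars are the mean ± SD of 3. Nfkb2, Relb, Rel and Nfkbiz lay higher and Nfkbia lower in all 6 high-glucose libraries than in all 6 low-glucose libraries.

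Comparing high with low glucose asked how the RNA of these genes followed the stimulus used for insulin secretion. Averaged over vehicle and TMAO, 4 of the 10 genes, Rel, Nfkb2, Relb and Nfkbiz, rose at high glucose and Nfkbia fell. Changes were between 18.5% and 32.8% upward, and 20.2% downward for Nfkbia. At an adjusted p under 0.05 in edgeR, 8.19% of all tested genes were called in this comparison, 4.13% higher and 4.06% lower. The libraries of the 2 glucose levels did not overlap in FPKM for these 5 genes, against 5.01% of all tested genes. The median log2 fold change of the 10 genes was 0.14, beside 0.0011 for all tested genes.

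Among the subunits, Rel encodes c-Rel, a transactivating subunit best known from lymphocytes. Its FPKM was 3.22, 2.93 and 3.40 with LG vehicle, 3.02, 3.46 and 2.96 with LG TMAO, 3.80, 4.38 and 4.17 with HG vehicle, and 4.09, 4.47 and 4.27 with HG TMAO. Every high-glucose library was above every low-glucose library. The log2 fold change was 0.37 ± 0.077 (SE) with vehicle (edgeR adjusted p = 0.00265) and 0.44 ± 0.076 with TMAO (edgeR adjusted p = 0.000293). Rel was called in both treatments and with any single library left out.

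Nfkb2 and Relb encode the pair of the alternative branch. Nfkb2 was at 14.4, 14.8 and 14.3 FPKM with LG vehicle, 13.3, 12.5 and 16.3 with LG TMAO, 22.8, 17.4 and 20.2 with HG vehicle, and 18.0, 17.8 and 17.4 with HG TMAO. The highest low-glucose library was an LG TMAO library, and the spread was widest with HG vehicle. Its log2 fold change with glucose was 0.47 ± 0.095 with vehicle (edgeR adjusted p = 0.00956) and 0.34 ± 0.096 with TMAO (edgeR adjusted p = 0.0749). The call with vehicle was lost without LG vehicle replicate 1 (adjusted p = 0.0582), LG vehicle replicate 3 (0.0516) or HG vehicle replicate 3 (0.0555), with log2 fold changes of 0.47, 0.46 and 0.47. With TMAO it was gained without LG TMAO replicate 3 (edgeR adjusted p = 0.000464), with DESeq2 (0.00733), with no filter on low counts (1.22e-05) and with only the 6 libraries compared (0.0131). In GENCODE M21, exons of Nfkb2 share 531 bases with AC114539.1 and 299 bases with Psd, both on the opposite strand. The Nfkb2 coordinates in that release differ from those used for the counts. AC114539.1 was not among the counted genes, and Psd had a mean of 3613 counts against 1030 for Nfkb2. The strand setting of the counting is not stated, so reads from the shared bases cannot be assigned. The log2 fold change of Psd with glucose was 0.078 ± 0.055 (edgeR adjusted p = 0.496).

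Relb was at 7.74, 7.95 and 8.84 FPKM with LG vehicle, 8.48, 8.17 and 9.42 with LG TMAO, 11.4, 10.8 and 11.4 with HG vehicle, and 11.0, 9.51 and 9.50 with HG TMAO. HG vehicle was the highest group by mean, but HG TMAO replicate 1, at 11.0, was above HG vehicle replicate 2, at 10.8. Of the 3 HG TMAO libraries, 2 lay just above the highest low-glucose library. Its log2 fold change with glucose was 0.46 ± 0.072 with vehicle (edgeR adjusted p = 7.72e-05) and 0.20 ± 0.072 with TMAO (edgeR adjusted p = 0.134). The value with TMAO was 0.13 without HG TMAO replicate 1 (edgeR adjusted p = 0.464).

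Rela and Nfkb1, the genes of the classical RelA-p50 dimer, were not called in any comparison. Rela was between 21.7 and 26.4 FPKM at low glucose (median 24.9) and between 23.0 and 24.4 at high glucose (median 23.6). Its log2 fold change with glucose over both treatments was -0.055, with a 95% interval from -0.14 to 0.026. Nfkb1 was between 4.66 and 5.12 FPKM at low glucose (median 4.98) and between 4.72 and 5.43 at high glucose (median 5.05). Its log2 fold change was 0.034, with a 95% interval from -0.047 to 0.12. With both treatments together, the low- and high-glucose ranges of both genes overlapped. With vehicle alone, the 3 HG libraries of Rela, at 23.6 to 24.4 FPKM, lay below the 3 LG libraries, at 24.6 to 26.4, with a log2 fold change of -0.079 ± 0.056 (edgeR adjusted p = 0.623).

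The make-up of the subunit RNA is given as a share of the summed FPKM of the 5 subunit genes. Rela made up 45.1% ± 1.25 (SD, n = 3) with LG vehicle, 43.7% ± 2.25 with LG TMAO, 37.3% ± 1.26 with HG vehicle and 38.5% ± 0.901 with HG TMAO. Nfkb2 made up 25.7% ± 0.809, 25.7% ± 2.11, 31.1% ± 2.76 and 29.4% ± 0.442 in the same order. The summed FPKM was 56.3 ± 0.865, 54.5 ± 3.57, 64.5 ± 3.01 and 60.4 ± 0.814. These shares restate the levels above and were not tested. They also depend on the gene lengths used, most of all for Nfkb1.

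**Figure D2:**
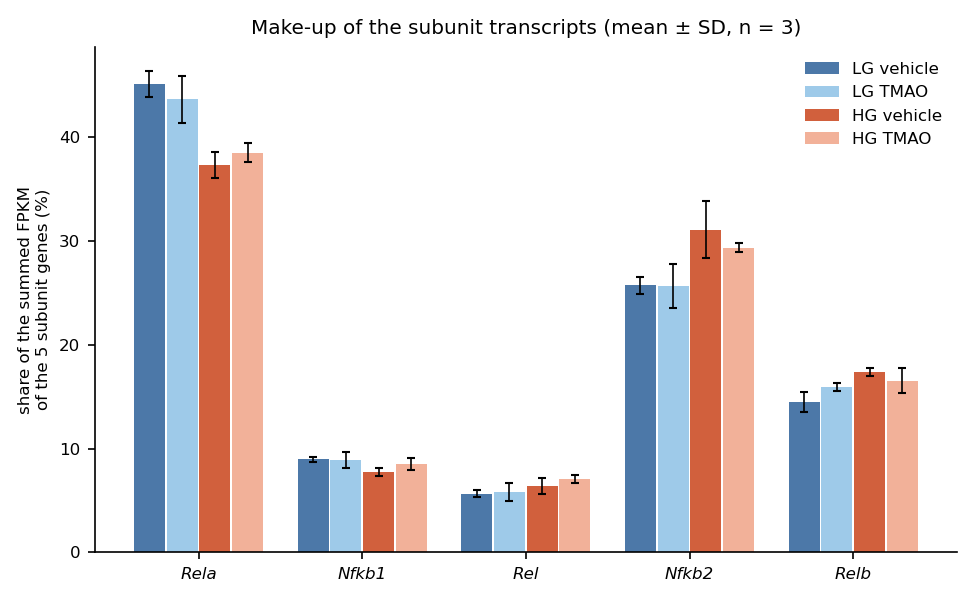
Share of the summed FPKM of the 5 subunit genes taken by each (vertical axis, percent), as the mean of 3 libraries with SD bars, in the 4 conditions. The mean share of Rela is 45.1% with LG vehicle and 37.3% with HG vehicle, and that of Nfkb2 is 25.7% and 31.1%.

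Of the inhibitors, Nfkbia encodes IκBα, which retains RelA dimers in the cytoplasm. It was at 39.7, 38.6 and 37.6 FPKM with LG vehicle, 39.5, 35.8 and 34.6 with LG TMAO, 31.9, 30.6 and 26.6 with HG vehicle, and 30.8, 32.5 and 27.5 with HG TMAO. The lowest low-glucose library, at 34.6, was above the highest high-glucose library, at 32.5. Its log2 fold change was -0.38 ± 0.069 with vehicle (edgeR adjusted p = 0.000777) and -0.27 ± 0.069 with TMAO (edgeR adjusted p = 0.0195). With TMAO the call was lost without LG TMAO replicate 1 (adjusted p = 0.149), HG TMAO replicate 1 (0.0567) or HG TMAO replicate 3 (0.182), with log2 fold changes of -0.22, -0.28 and -0.21. It was also lost with limma on log2(FPKM + 1) and log2(FPKM + 0.1) (adjusted p = 0.0948 and 0.0940), with log2 fold changes of -0.27 and -0.28.

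Nfkbib and Nfkbie encode IκBβ and IκBε. Nfkbib was between 14.8 and 17.9 FPKM over the 12 libraries, and its log2 fold change with glucose over both treatments was -0.012, with a 95% interval from -0.12 to 0.094. Nfkbie was between 3.07 and 3.53 FPKM at low glucose and between 3.38 and 4.61 at high glucose. Its log2 fold change over both treatments was 0.24 ± 0.085 and missed the threshold (edgeR adjusted p = 0.0834), and it was called without HG vehicle replicate 2 (edgeR adjusted p = 0.0380). Nfkbib shares 314 exonic bases with Ccer2 (a mean of 2.58 counts) and 42 with Sirt2, both on the opposite strand, with the same limit on strand as for Nfkb2. Sirt2 had a mean of 1201 counts against 676 for Nfkbib, and its log2 fold change with glucose was 0.0011 ± 0.044 (edgeR adjusted p = 0.994).

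Nfkbiz encodes IκBζ, a nuclear IκB that acts as a cofactor at secondary response genes. It was at 5.18, 5.08 and 4.72 FPKM with LG vehicle, 4.99, 5.08 and 5.17 with LG TMAO, 5.98, 6.42 and 5.92 with HG vehicle, and 5.89, 6.20 and 5.34 with HG TMAO. The low-glucose libraries lay within a narrow band below all high-glucose libraries. The log2 fold change was 0.29 ± 0.071 with vehicle (edgeR adjusted p = 0.0127) and 0.20 ± 0.071 with TMAO (edgeR adjusted p = 0.138). With vehicle the call was lost without LG vehicle replicate 3 (adjusted p = 0.0936) or HG vehicle replicate 2 (0.0999), with a log2 fold change of 0.25 in both.

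Tnfaip3 encodes A20, a ubiquitin-editing enzyme that limits signalling to IKK. It was at 2.71, 2.78 and 2.55 FPKM with LG vehicle, 2.39, 2.46 and 2.51 with LG TMAO, 2.39, 2.55 and 1.74 with HG vehicle, and 2.21, 2.19 and 2.13 with HG TMAO. HG vehicle replicate 3 was the lowest of the 12. Over both treatments the log2 fold change was -0.21 ± 0.069 and fell just short of the threshold (edgeR adjusted p = 0.0522). It was called with no filter on low counts (edgeR adjusted p = 0.0158), with the replicate number as a block (0.0293) and without LG vehicle replicate 3 (0.0494), HG vehicle replicate 1 (0.0367) or HG vehicle replicate 2 (0.0133). It was not called in the other 5 alternatives with all libraries (adjusted p up to 0.162) or in the other 9 fits with 1 library left out, where the value without HG vehicle replicate 3 was -0.14 (adjusted p = 0.177).

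With vehicle alone, 5 of the 10 genes were called with glucose, 4 higher and 1 lower, beside 3.30% of all tested genes. With TMAO alone, 2 were called, Rel higher and Nfkbia lower, beside 3.64%. The libraries did not overlap for 7 genes with vehicle (the 5 called, Rela and Tnfaip3) and 7 with TMAO (the same without Rela, and Nfkbie), beside 18.9% and 18.6% of all tested genes. Without LG vehicle replicate 3, 3 genes were called with vehicle. With TMAO, 1 gene was called without LG TMAO replicate 1, HG TMAO replicate 1 or HG TMAO replicate 3. These counts do not show that glucose acted differently with TMAO, which is the question of the interaction test.

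**Figure D3:**
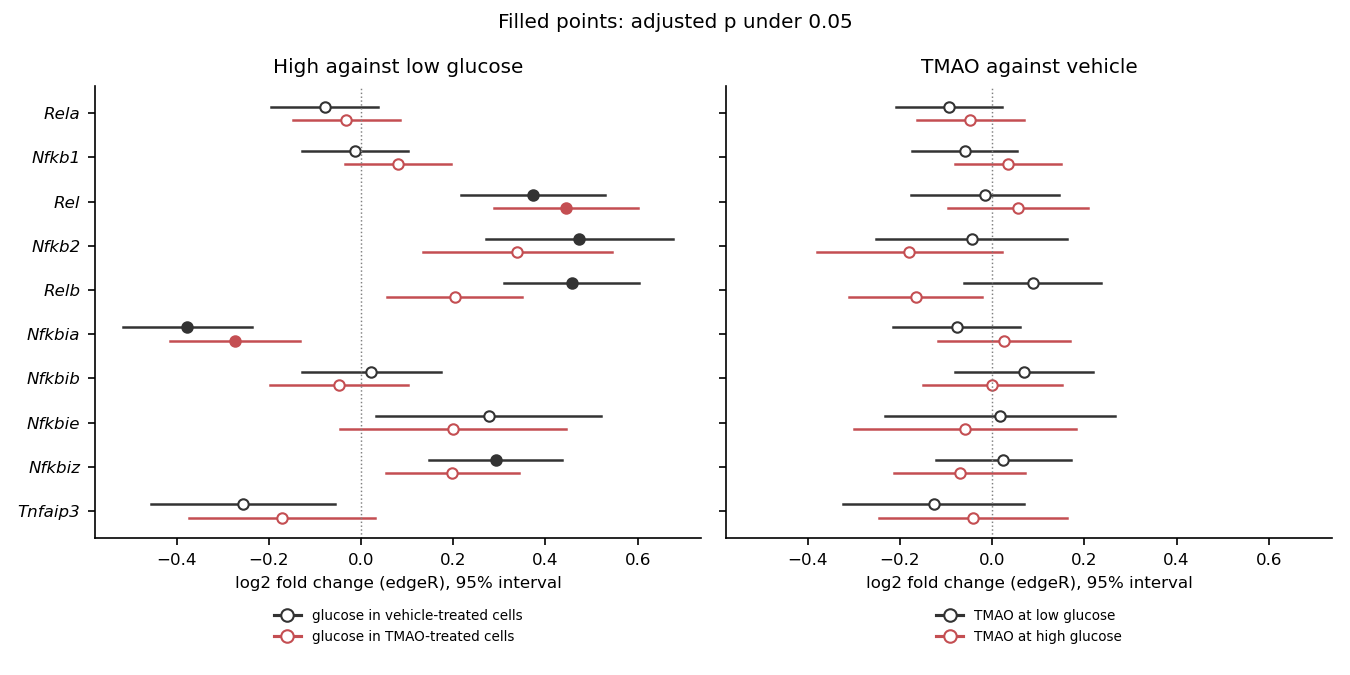
Log2 fold change (horizontal axis) with its 95% interval from edgeR for each gene, for high against low glucose (left) and TMAO against vehicle (right). Filled points have an adjusted p under 0.05: 5 genes with vehicle and 2 with TMAO on the left, and 0 on the right.

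TMAO against vehicle asked whether the metabolite moved the RNA of the pathway at either glucose level. No gene of the 10 was called at low glucose, where 0.00616% of all tested genes were called, or at high glucose, where 0.0% were. DESeq2 and limma also called 0 of the 10. At an unadjusted p under 0.05, the edgeR count was 0 of 10 at low glucose and 1 of 10, Relb, at high glucose, beside 2.20% and 5.35% of all tested genes. The libraries did not overlap for 1 gene at low glucose, Tnfaip3, and for 1 at high glucose, Rela, beside 6.34% and 11.2% of all tested genes.

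At high glucose Relb had a log2 difference of -0.17 ± 0.071 between TMAO and vehicle (edgeR unadjusted p = 0.0256, adjusted p = 0.910). Nfkb2 had a log2 difference of -0.18 ± 0.094 (edgeR adjusted p = 0.910), which was -0.078 without HG vehicle replicate 1 and -0.28 without HG vehicle replicate 2. The difference for Rela was -0.047, with a 95% interval from -0.16 to 0.069. Over the 10 genes, the 95% intervals in fold terms ran from -20.0% to 20.3% at low glucose and from -23.2% to 15.5% at high glucose. Differences outside those bounds lay beyond every interval at that level. Each interval was set for 1 gene alone, so the bounds do not hold jointly at 95%. With both glucose levels averaged, 0 of 10 genes were called and 0 had an unadjusted p under 0.05 in edgeR, beside 0.0% and 3.62% of all tested genes. DESeq2 and limma called 0 of the 10.

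The interaction asked whether the glucose response differed between TMAO and vehicle. No gene of the 10 was called by edgeR, DESeq2 or limma, and 0.0% of all tested genes were called by edgeR. Relb was the 1 gene of the 10 with an unadjusted p under 0.05, beside 3.36% of all tested genes, with an interaction of -0.25 ± 0.10 on the log2 scale (edgeR unadjusted p = 0.0183, adjusted p = 0.9998). Its 95% interval ran from -0.46 to -0.046. For the other 9 genes the 95% interval of the interaction included 0.

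The other genes of the pathway were grouped by role. All 10 genes of the IKK complex and its upstream kinases were tested, and 0 were called in any comparison by edgeR, with 3 of 10 at an unadjusted p under 0.05 for glucose over both treatments. In that comparison 8.19% of all tested genes were called and 20.1% had an unadjusted p under 0.05. Of 16 receptor genes 9 were tested, and 1 was called with glucose over both treatments, beside 8.19% of all tested genes. Il1r1, the signalling receptor of IL-1, was at 78.5 to 85.2 FPKM at low and 95.3 to 106.9 at high glucose, with a log2 fold change of 0.32 ± 0.030 (edgeR adjusted p = 2.49e-09). Of 9 ligand genes 3 were tested and 0 were called by edgeR, with 1 of 3 at an unadjusted p under 0.05 for glucose over both treatments, beside the same 8.19% called and 20.1% unadjusted.

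Of 17 adaptors and ubiquitin ligases 15 were tested, and with glucose over both treatments 1 was higher and 1 lower, beside 4.13% and 4.06% of all tested genes. Traf6, an E3 ligase downstream of the IL-1 receptor, fell by 0.20 ± 0.047 on the log2 scale (edgeR adjusted p = 0.00558). Birc3, which encodes cIAP2, rose by 0.60 ± 0.15 (edgeR adjusted p = 0.0100) from a low level of 0.459 ± 0.0763 FPKM (SD, n = 6). Of 14 other IκB proteins and negative regulators 12 were tested, and 1 was higher and 1 lower with glucose over both treatments, beside the same shares of all tested genes. Nfkbid, which encodes the nuclear IκBNS, rose by 0.42 ± 0.12 (edgeR adjusted p = 0.0300), and Tnip1, which encodes an A20-binding protein, fell by 0.17 ± 0.043 (edgeR adjusted p = 0.00927).

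Of 28 NF-κB target genes 11 passed the filter, and most of the chemokine and adhesion genes did not. With glucose over both treatments 2 of the 11 were higher and 1 was lower, beside 4.13% and 4.06% of all tested genes. The median log2 fold change of the 11 was 0.0029, beside 0.0011 for all tested genes. The counts in these lists are a description, and the named genes are single results. Junb, an AP-1 subunit, rose from 24.2 to 28.4 FPKM at low to 52.7 to 59.5 at high glucose, a log2 fold change of 1.14 ± 0.041 (edgeR adjusted p = 9.67e-20). Ier3, an immediate early gene, rose by 1.11 ± 0.10 on the log2 scale (edgeR adjusted p = 1.99e-08). Irf1, an interferon-response factor, fell by 0.28 ± 0.040 (edgeR adjusted p = 9.28e-06). All 3 are also known to be controlled by other pathways. TMAO changed none of the listed genes past the threshold at either glucose level in edgeR.

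**Figure D4:**
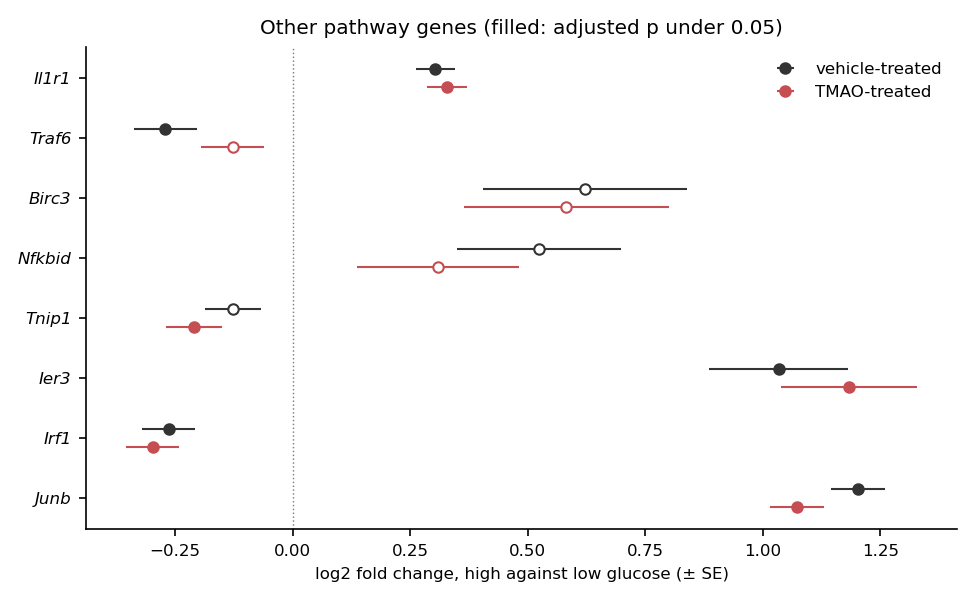
Log2 fold change for high against low glucose (horizontal axis, ± SE) of the 8 listed pathway genes called in at least 1 comparison, in vehicle- and TMAO-treated cells. Filled points have an adjusted p under 0.05, and Junb and Ier3 lie beyond 1 in both treatments.

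The inflammasome genes that the study followed as proteins had low counts as RNA. The paper reports that TMAO raised these proteins in MIN6 cells at high glucose. Its protein measurements used a higher TMAO dose than the RNA-seq. The RNA at that higher dose was not tested, so the values below do not bear on the protein result. Of 9 listed inflammasome genes 4 were tested and 0 were called by edgeR in any comparison, with 1 of 4, Il1b, at an unadjusted p under 0.05 for glucose over both treatments, where 8.19% of all tested genes were called and 20.1% had an unadjusted p under 0.05. Nlrp3 had 0 to 2 counts per library, Casp1 0 to 6 and Aim2 0 to 3, and these 3 did not pass the filter. Pycard, which encodes ASC, had 4 to 18 counts, and Il1b had 14 to 37. The log2 difference of Pycard between TMAO and vehicle was 0.47 ± 0.57 at low glucose and 0.29 ± 0.50 at high glucose (edgeR adjusted p = 0.9999 and 0.979). That of Il1b was -0.43 ± 0.33 at low glucose and 0.26 ± 0.30 at high glucose (edgeR adjusted p = 0.9999 and 0.951), and -0.085 ± 0.22 over both.

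The genes most like each glucose-responsive gene were found from log2 normalized counts centred on their 12-library mean, by the root mean square difference. The search covered tested genes with a mean of at least 50 counts and left out the 10 genes themselves, so none of them could be listed. For Nfkb2 they were Irf2bpl, Cbarp and Mafa, with differences of 0.0865, 0.0866 and 0.0989, against 0.262 for the median gene. For Relb they were Ulk1, Mafg and Nr1h2, at 0.0746, 0.0854 and 0.0884. For Nfkbia they were Plekhg6, Zfp763 and Rflna, at 0.0567, 0.0595 and 0.0625. For Nfkbiz they were Peg13, Elmsan1 and Fam122a, at 0.0588, 0.0605 and 0.0633. For Rel they were an unnamed gene of the provider, Krt25 and Orc1, at 0.0791, 0.0803 and 0.0809. The difference of the median gene was 0.219 for Relb, 0.205 for Nfkbia, 0.167 for Nfkbiz and 0.242 for Rel. All values come from the same 12 libraries and describe likeness only.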

How the data were processed

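RNA-seq of MIN6 cells was analysed in 4 conditions of 3 libraries, grouped by the sample labels. The authors deposited raw gene counts and FPKM values, the latter scaled by gene length and library total. The submitters' processing notes name HISAT2 2.0.5, featureCounts 1.5.0-p3, DESeq2 1.16.1 and mm10, and the strand setting is not given in the sources used here. The methods describe poly-T selection.

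Counts were fitted in R 4.3.3 with edgeR 4.0.16 (filterByExpr, TMM, robust quasi-likelihood F test, 12 libraries, 4 condition means). P-values were adjusted by Benjamini-Hochberg over 16222 genes and called under 0.05. The glucose and TMAO comparisons share libraries. Levels between genes were compared as FPKM. The script was tested on simulated counts. Alternatives were DESeq2 size factors, DESeq2 1.42.0, no filter, at least 10 counts in every library, a fit restricted to the samples compared, a replicate block, limma 3.58.1 on log2(FPKM + 1) and log2(FPKM + 0.1), FPKM recomputed from counts, and each library left out.

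The 10 genes and the pathway lists were chosen with earlier results of these data known. All 10 genes are named in every comparison. Pathway genes are named where called in at least 1 comparison, at most 5 a list, and the genes measured as proteins by the study are named whatever their result. Nearest patterns are the 3 closest genes outside the 10. The labels give 1 µg of RNA per sample and the paper another amount.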

Additional observations from a re-analysis of the deposited data

How the results depend on the processing

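The 5 genes called for glucose with vehicle were called under every alternative that kept all libraries. Leaving out 1 library gave 3 to 5 called genes with vehicle, 1 to 3 with TMAO and 5 to 7 over both treatments. With limma on log2(FPKM + 1) or log2(FPKM + 0.1), 1 gene was called for glucose with TMAO in place of 2. With DESeq2, with no filter on low counts or with only the libraries compared, 3 were called, Nfkb2 being added. TMAO and interaction counts were 0 in every alternative. With the replicate number as a block, 5, 2 and 6 genes were called for glucose with vehicle, with TMAO and over both treatments, and 0 in each TMAO and interaction comparison. The gene added under the block was Tnfaip3 (log2 fold change -0.218, adjusted p = 0.0293). Same-numbered libraries had correlated deviations from -0.0369 to 0.206, not above 0.1 in every pair, so the numbers were not taken to pair the samples. With principal transcript lengths, chosen after the data were seen, 5 of 10 genes kept their rank by level and 21 of 40 condition means stayed within 1 SD. Signs turned in uncalled genes near 0. Nfkbib for TMAO at high glucose was -0.00175 with at least 10 counts in every library and -8.26e-05 with limma on log2(FPKM + 0.1). With 1 library left out, these log2 values crossed 0. For glucose with vehicle, Nfkbib ranged from -0.0371 to 0.0653. For glucose with TMAO, Rela ranged from -0.0929 to 0.0165. For TMAO at low glucose, Rel ranged from -0.0893 to 0.033, Nfkbiz ranged from -0.0151 to 0.0501, Nfkbie ranged from -0.0382 to 0.0635 and Nfkb2 ranged from -0.165 to 0.0308. For TMAO at high glucose, Tnfaip3 ranged from -0.185 to 0.068, Nfkbie ranged from -0.162 to 0.074, Nfkbib ranged from -0.0608 to 0.0372, Nfkbia ranged from -0.0457 to 0.0894 and Nfkb1 ranged from -0.00952 to 0.0932. For the interaction, Rela ranged from -0.0149 to 0.0947, Nfkbie ranged from -0.179 to 0.0566 and Tnfaip3 ranged from -0.0583 to 0.195. For glucose over both treatments, Nfkbib ranged from -0.0472 to 0.00998. For TMAO over both glucose levels, Rel ranged from -0.0163 to 0.0446, Nfkb1 ranged from -0.0346 to 0.0165, Nfkbie ranged from -0.0725 to 0.0457, Nfkbia ranged from -0.0613 to 0.00634 and Nfkbiz ranged from -0.0494 to 0.00445. Nlrp3, Casp1 and Aim2 had too few counts to be tested. The causes were not tested.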
